A study of Rattus with 6 samples.

Results

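The RNA binding motif (Rbm) genes encode proteins named for an RNA recognition domain, and the set described here was every protein-coding gene of the count table whose symbol starts with Rbm, apart from Rbm25, Rbm25l1, Rbm20 and Rbm24. This rule gave 37 members among the 16544 protein-coding genes and 20742 genes in all. The members were measured by poly(A) RNA sequencing in H9C2 cells, a rat cell line from embryonic heart, in 3 libraries of cells with a control plasmid and 3 of cells with a plasmid for RBM25 overexpression. All 6 libraries are of this one cell line, and the labels do not say whether the libraries of a group come from separate cultures, so the p-values may reflect technical spread alone.

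Most Rbm proteins bind RNA through the domain that gives the family its name, but the symbol does not mark a single pathway. Some members are parts of the spliceosome or steer its choice of exons, others guide the enzyme that methylates adenosines in RNA, hand nuclear transcripts to the exosome for decay, help to assemble ribosomes, or act on the stability and translation of mRNA. RBM25, the protein raised here, is itself a splicing regulator that works with the U1 snRNP. Some members, such as Rbm10 and Rbm39, are known to act on the splicing of their own or a relative's transcripts in mammalian cells.

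Libraries held 25543849 to 33130256 counted reads. The overexpressed gene itself rose by a small margin and with no overlap between the groups. On the CPM scale, which is reads scaled to the depth of the library, Rbm25 was at 49.2, 44.5 and 45.7 in control replicates 1 to 3 and at 56.2, 55.8 and 60.0 in RBM25 replicates 1 to 3, a log2 fold change of 0.30 (SE 0.047; adjusted p = 0.0011 in edgeR). Leaving out control replicate 2 ended the call (adjusted p = 0.0842 in edgeR), as did limma on FPKM (adjusted p = 0.211). Rbm25l1, an Rbm25-like gene also outside the rule, had 1, 1 and 3 reads in the controls and 147, 114 and 105 reads in the RBM25 libraries, with no overlap (adjusted p = 7.27e-12 in edgeR), and how reads were split between such similar genes is uncertain. In these bulk libraries a change in the number of cells that express a gene and a change per cell cannot be told apart. Of 12882 genes tested, 0.404% changed at an adjusted p under 0.05. RBM25 replicate 3 differed from the other 2 libraries of its group with a chi-square of 5.88 and 4.55 per degree of freedom, against 3.07 between replicates 1 and 2. Of the muscle-lineage list, Vim was at 4103 CPM in controls, Tnnt2 at 106, Myod1 at 60.4 and Myog at 21.4 CPM. Nkx2-5 was at 15.2, Gata4 at 11.6, Acta1 at 9.40 and Des at 9.25 CPM. Far lower were Actc1 at 0.776 CPM and the cardiac myosins Myh6 at 0.284 and Myh7 at 0.0131 CPM. Myf5 was not among the counted genes. The listed leukocyte markers summed to 0.471 to 0.711 CPM in control and 0.679 to 1.10 CPM in RBM25 libraries, and the endothelial ones to 0.453 to 1.29 and 0.636 to 0.821 CPM. The epithelial list, nearly all of it the keratin Krt8, summed to 24.95 to 28.7 and 25.7 to 29.8 CPM, and the neuronal list, mostly the tubulin Tubb3, to 4.35 to 5.49 and 3.70 to 5.97 CPM. The germ cell list summed to at most 0.0323 CPM in control and 0.0358 CPM in RBM25 libraries. In RBM25 replicates 1 to 3 Tnnt2 was at 94.0, 94.5 and 137 CPM and the myogenic factor Myog at 14.6, 14.9 and 25.6 CPM, and replicate 3 was above every control in both; their part in the results below was not tested.

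The family was expressed broadly but very unevenly. Levels between genes are given in FPKM, which divides reads by gene length and by library depth, as the authors computed them. In control libraries 5 members were at 50 FPKM or more, 10 between 10 and 50, 16 between 1 and 10, and 6 under 1. The median member was at 7.70 FPKM, against 2.55 FPKM for the median of 16357 protein-coding genes. The 5 highest members made up 61.2% of the summed level of the 37. From the lowest tested member to the highest the level differed 1023-fold.

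The highest was Rbm3, an RNA-binding protein induced by mild cold, at 185.9, 184.7 and 181.9 FPKM in control replicates 1 to 3. In RBM25 replicates 1 to 3 it was at 193.4, 189.3 and 191.1 FPKM, so all RBM25 libraries lay above all controls, by little. It alone held 24.8% of the family's control level and stood above 97.3% of protein-coding genes. Next came Rbm8a, the Y14 subunit of the exon junction complex that marks spliced mRNA, at 76.7, 70.02 and 69.4 FPKM in controls and at 73.3, 76.1 and 72.8 FPKM with RBM25. Rbms2, a protein that binds single-stranded nucleic acid, was at 72.2, 71.0 and 69.7 FPKM in controls and at 70.3, 70.3 and 70.2 FPKM with RBM25, and the control ranges of these neighbours overlapped. Rbm42, which is found in the tri-snRNP of the spliceosome, was at 62.3, 65.1 and 65.4 FPKM in controls and at 64.7, 64.7 and 65.2 FPKM with RBM25. Rbmxl1, a relative of the splicing regulator Rbmx that is known in humans as a retrocopy, was at 64.1, 62.01 and 62.8 FPKM in controls and at 61.5, 61.3 and 59.7 FPKM with RBM25. The control ranges of Rbm42 and Rbmxl1 overlapped as well.

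**Figure D1:**
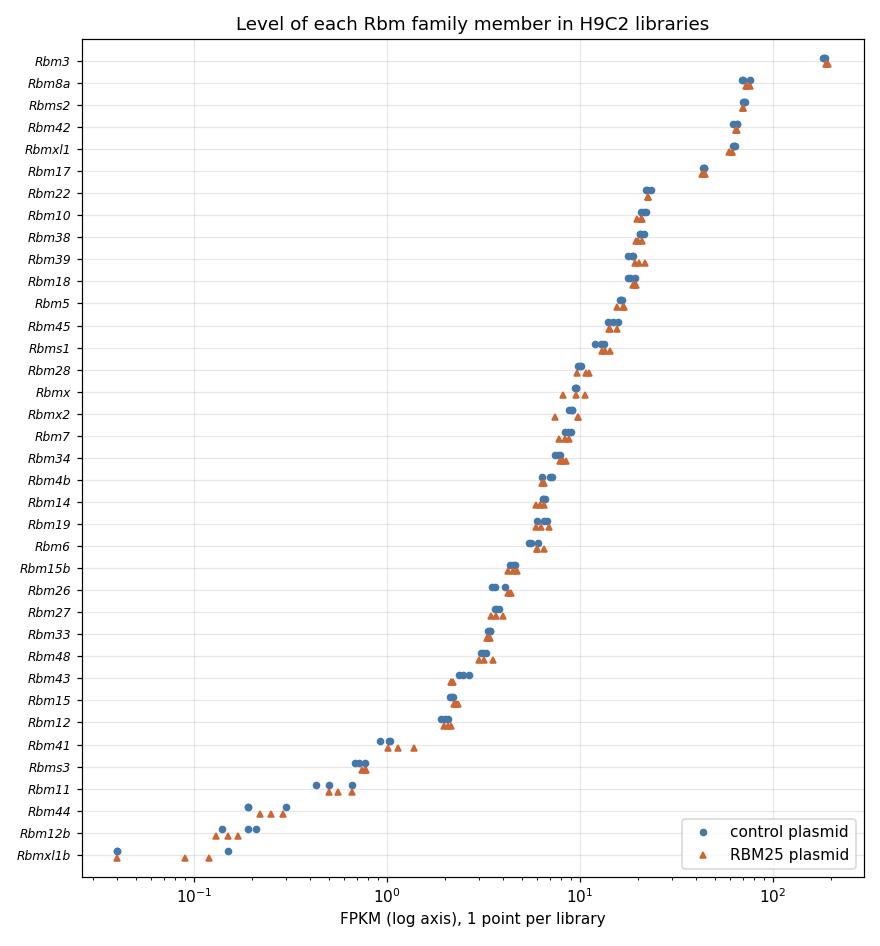
Level of each of the 37 Rbm family members in every library, in FPKM on a log axis, ordered by the control mean. Circles are control libraries and triangles RBM25 libraries. The genes differ 1023-fold between the highest and the lowest tested member.

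Of the 10 members between 10 and 50 FPKM, 5 are splicing proteins. Rbm17, a spliceosome protein that binds U2-associated factors, was at 44.0 ± 0.300 FPKM. Rbm22, which contacts the catalytic RNA core of the spliceosome, was at 22.6 ± 0.811 FPKM. The exon-choice regulators Rbm10, Rbm39 and Rbm5 were at 21.4, 18.4 and 16.4 FPKM. The others in this band were Rbm38, a target of p53 that binds mRNA of the p53 network, at 20.9 FPKM, and Rbm18 (18.4), Rbm45 (14.9), Rbms1 (12.8) and Rbm28, the lowest of the band. Rbm25, which is not a member by the rule, would have ranked in place 17 by its control level of 9.47 FPKM.

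The 16 members between 1 and 10 FPKM ran from Rbmx (9.53) to Rbm12 (1.99). They included both m6A adaptors, with Rbm15b at 4.50 ± 0.153 and Rbm15 at 2.16 ± 0.0306 FPKM, and the pair Rbm26 and Rbm27, at 3.75 ± 0.318 and 3.72 ± 0.0907 FPKM, whose ranges overlapped. Under 1 FPKM were Rbm41 (0.993), Rbms3 (0.723), Rbm11 (0.53), Rbm44 (0.227), Rbm12b (0.18) and Rbmxl1b (0.0767). Rbm11 is known as a tissue-restricted splicing regulator and Rbm44 as a germ-cell protein in mice. Rbmxl1b, with 12 control reads and 14 RBM25 reads in all, was the only member that did not pass the filter on low counts. Of the 36 pairs of neighbours in this order, 12 had overlapping control ranges.

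Some close relatives within the family differed widely in level and others did not. Rbmxl1 was 6.60 ± 0.106 times as high as Rbmx per length in controls and 6.50 ± 0.777 times in RBM25 libraries (SD, n = 3). Rbms2 was 5.57 ± 0.297 times as high as Rbms1 in controls and 5.16 ± 0.246 times in RBM25 libraries, while Rbms3 was at 0.0566 ± 0.000781 and 0.0560 ± 0.00209 of the level of Rbms1. In CPM, which is not divided by length, control means were 117 for Rbmxl1, 50.3 for Rbmx, 245 for Rbms2 and 87.3 for Rbms1. The ratios in FPKM are larger and rest in part on the gene lengths used by the authors. Rbm27 was at 0.994 ± 0.0612 of the level of Rbm26 in controls and at 0.858 ± 0.0697 with RBM25. Reads of near-identical copies, such as Rbmx and Rbmxl1, can be assigned to either gene in counting, which leaves their separate levels uncertain.

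With RBM25 overexpression none of the 36 tested members changed at an edgeR adjusted p under 0.05, beside 0.404% of all tested genes. The smallest adjusted p of a member was 0.0701. At an unadjusted p under 0.05, 4 members (Rbm39, Rbm26, Rbms1 and Rbm41) were higher and none was lower, where 4.78% of all tested genes were. That is 11.1% of the members beside 11.2% of all tested genes; in the upward direction alone the share over all genes was 6.4%. DESeq2 also called none (0.435% of all genes), with 2 members (Rbm26 and Rbm39) at an unadjusted p under 0.05, where 7.09% of all tested genes were. On FPKM limma called none (0.0268% of all genes), with 4 of 34 members at an unadjusted p under 0.05 beside 9.67% of all tested genes. The median log2 fold change of the members was 0.0058, against -0.0021 over all tested genes, and 19 members had a positive and 17 a negative value.

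The intervals of most of these changes were narrow, but like the p-values they may reflect technical spread alone. For 30 of the 36 members the 95% interval of the fold change lay within 1.2-fold in either direction, and for 34 within 1.5-fold. For 32 the upper end of the interval lay below the log2 fold change of 0.30 measured for Rbm25 itself. That value had its own 95% interval of 0.21 to 0.40. It covers only reads counted to Rbm25, and Rbm25l1 had a log2 fold change of 5.97. The 4 whose interval reached 0.30 were Rbm26, Rbm41, Rbm11 and Rbm44, of which Rbm11 and Rbm44 had only 130 and 88 control reads. Only upper ends were compared, and the lower ends for Rbm43 and Rbm12b, both among the 32, were -0.44 and -0.70. A log2 fold change under 0.1 in size was found for 29 members, and 68.9% of all tested genes were that small.

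**Figure D2:**
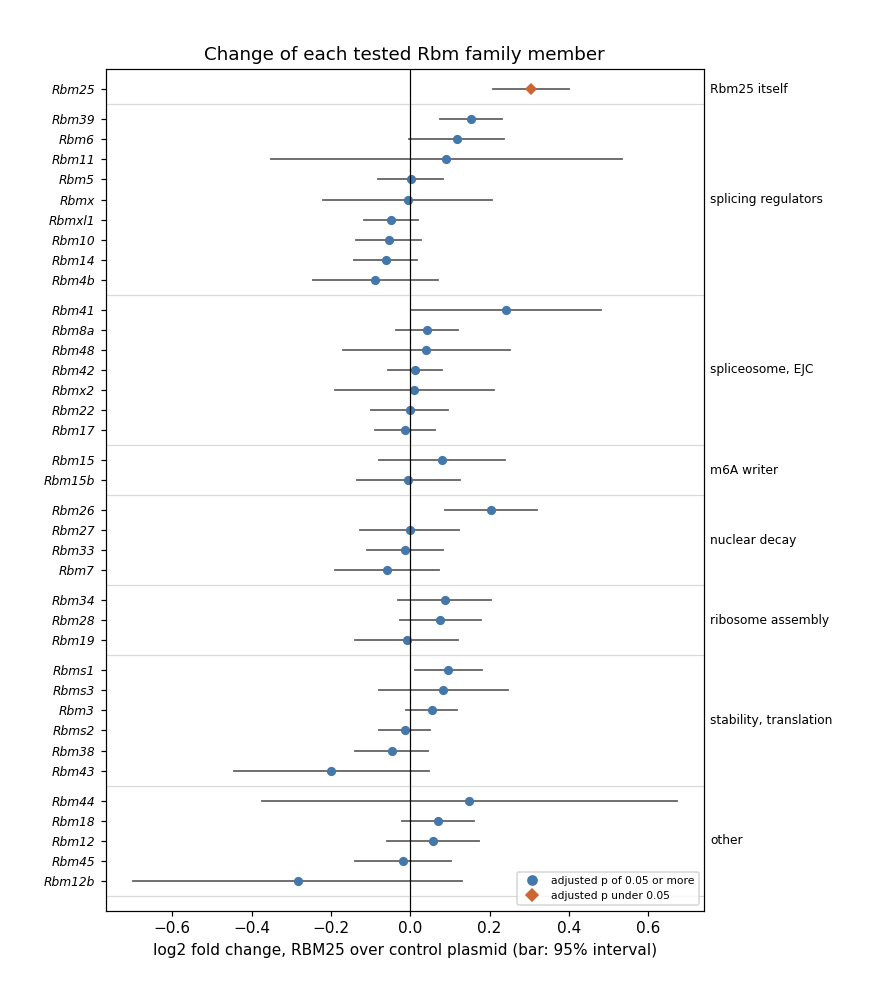
Log2 fold change (RBM25 over control plasmid) of Rbm25 and of the 36 tested members, grouped by role, with 95% intervals from edgeR. EJC is the exon junction complex. The diamond marks an adjusted p under 0.05, which Rbm25 reached and no member did; most intervals are narrow and include 0.

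Among the regulators of exon choice, Rbm39 had the smallest p of the family. Rbm39 is a splicing factor related to U2AF, known as the protein that aryl sulfonamide drugs send to degradation. It was at 115, 109.9 and 117 CPM in control replicates 1 to 3 and at 121, 126 and 135 CPM in RBM25 replicates 1 to 3. All RBM25 libraries were above all controls, with replicate 3 the highest. The means were 114 ± 3.63 and 127 ± 6.97 CPM (SD, n = 3), and the log2 fold change was 0.15 ± 0.038 (SE; adjusted p = 0.0701 in edgeR, DESeq2 adjusted p = 0.136). It passed in 3 alternatives, among them the fit without RBM25 replicate 1 (edgeR adjusted p = 0.0106, where 0.444% of all genes were called) and the fit with no filter on low counts (edgeR adjusted p = 0.0045, where 0.988% were called). Over all alternatives its adjusted p ran from 1.09e-04 to 0.647.

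The other 8 regulators of exon choice gave log2 fold changes from -0.088 to 0.12. Rbm5, Rbm6 and Rbm10 share a domain layout and are known for their action on exons of apoptosis genes. Rbm5 was at 64.7 ± 1.2 and 64.8 ± 2.39 CPM (log2 fold change 0.0012, 95% interval -0.081 to 0.084), Rbm10 at 80.2 ± 2.26 and 77.2 ± 3.41 CPM (-0.054, interval -0.14 to 0.027) and Rbm6 at 27.1 ± 1.68 and 29.4 ± 1.25 CPM (0.12, interval -0.0037 to 0.24). None passed the test, and the groups overlapped for all 3.

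Rbm4b, whose close relative Rbm4 is a known regulator of muscle-specific exons, was at 12.4, 13.7 and 14.0 CPM in controls and at 12.7, 12.5 and 12.6 CPM with RBM25. The 3 RBM25 libraries lay within the range of the controls, with a log2 fold change of -0.088 ± 0.076 (SE; adjusted p = 0.722 in edgeR). Rbmxl1 was at 119, 116 and 117 CPM in controls and at 115, 115 and 110.4 CPM with RBM25. Its groups did not overlap, RBM25 being the lower, and the log2 fold change was -0.049 ± 0.034 (SE; adjusted p = 0.624 in edgeR). Rbm14, a coactivator that is found in paraspeckles, was at 93.8 ± 1.05 and 89.8 ± 4.71 CPM (edgeR adjusted p = 0.58).

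Rbmx and Rbmx2 are described here because their spread stood out once their values had been seen. Rbmx, the X-linked hnRNP G that regulates splicing, was at 50.5, 50.5 and 49.9 CPM in the controls and at 56.7, 50.3 and 42.8 CPM in RBM25 replicates 1 to 3. Its coefficient of variation was 0.738% between controls and 14.0% between RBM25 libraries, with replicate 3 below every control and replicate 1 above every control. Rbmx2, counterpart of a yeast spliceosome protein, was at 9.93, 10.3 and 10.2 CPM in controls and at 11.1, 11.1 and 8.37 CPM with RBM25 (coefficients of variation 1.89% and 15.4%). In both genes RBM25 replicate 3 was the lowest of the 6 libraries, and the mean difference between groups was near 0 (log2 fold change -0.0066 ± 0.091 and 0.010 ± 0.097 SE; edgeR adjusted p = 0.99 and 0.982). Over the tested members RBM25 replicate 3 was the highest or lowest library of its group for 27 of 36, or 75.0%, beside 73.8% of all tested genes. Control replicate 1 was so for 28 members, or 77.8%, beside 71.1%. The other 4 libraries were so for 50% to 72.2% of the members, beside 58.3% to 67.9% of all tested genes.

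**Figure D3:**
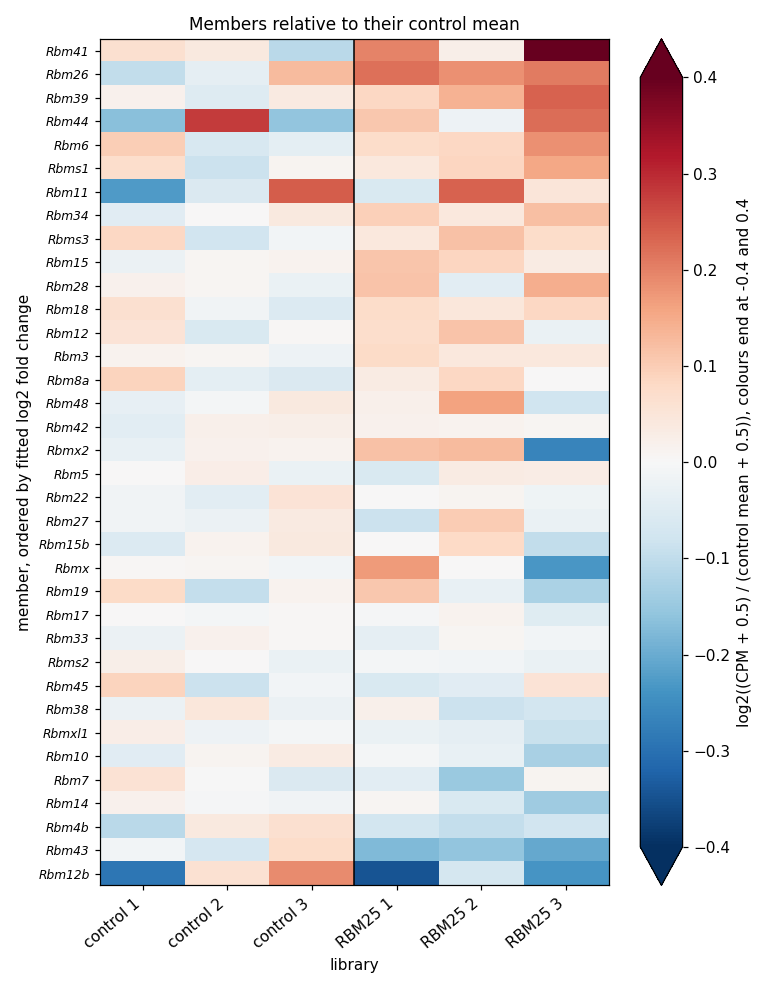
Log2 ratio of each tested member's CPM to its control mean, with 0.5 CPM added to both, in each of the 6 libraries, ordered by the fitted log2 fold change. Red is above and blue below the control mean. Rbm26 and Rbm39 are among several members above it in all 3 RBM25 libraries, and Rbm43 is among those below it in all 3. Rbmx and Rbmx2 are among the members that are lowest in RBM25 replicate 3.

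The members that belong to the spliceosome or the exon junction complex numbered 7. Their summed level was 370 to 377 CPM in controls and 371 to 384 CPM with RBM25, and none passed the test. Rbm8a was at 116 ± 6.56 and 119 ± 3.34 CPM, Rbm42 at 117 ± 3.02 and 118 ± 0.366 CPM, and Rbm17 at 75.5 ± 0.388 and 74.8 ± 1.72 CPM (SD, n = 3). Rbm22 was nearly level at 41.5 ± 1.42 and 41.4 ± 0.388 CPM, with a 95% interval of -0.098 to 0.095 for its log2 fold change. Rbm48, a protein of the minor spliceosome, was at 6.87 ± 0.188 and 7.06 ± 0.636 CPM.

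Rbm41, another protein of the minor spliceosome, had the largest positive log2 fold change of the family. It was at 6.28, 6.16 and 5.53 CPM in controls and at 6.94, 6.09 and 8.26 CPM in RBM25 replicates 1 to 3. The groups overlapped, since RBM25 replicate 2 lay below 2 controls, and replicate 3 was the highest of all. The log2 fold change was 0.24 ± 0.12 (SE; adjusted p = 0.431 in edgeR), and its range was 0.12 to 0.34 over the alternatives.

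The adaptors of nuclear RNA decay included the member with the next smallest p after Rbm39, and their partners the 1 listed partner gene that changed. Rbm26, which with its relative Rbm27 works beside the PAXT complex that hands polyadenylated nuclear RNA to the exosome, was at 30.1, 31.4 and 35.2 CPM in control replicates 1 to 3. In RBM25 replicates 1 to 3 it was at 37.6, 36.7 and 37.3 CPM. The RBM25 libraries were all above the controls and close together, and control replicate 3 came nearest to them. The means were 32.2 ± 2.67 and 37.2 ± 0.501 CPM (SD, n = 3), and the log2 fold change was 0.20 ± 0.056 (SE; adjusted p = 0.107 in edgeR, DESeq2 adjusted p = 0.211). It also passed in 3 alternatives, among them the fit without RBM25 replicate 3 (edgeR adjusted p = 0.0439, where 2.69% of all genes were called) and the fit with no filter on low counts (edgeR adjusted p = 0.0235). Over all alternatives its adjusted p ran from 0.0048 to 0.647.

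The other members listed with the adaptors differed little between control and RBM25 libraries. Rbm27 was at 25.9 ± 0.579 and 25.9 ± 1.77 CPM (log2 fold change -0.0016, 95% interval -0.13 to 0.12). Rbm33, listed here but known for work with the m6A demethylase ALKBH5, was at 40.04 ± 0.570 and 39.7 ± 0.599 CPM. Rbm7, the RNA-binding subunit of the NEXT complex that feeds short-lived nuclear RNA to the exosome, was at 22.3 ± 0.921 and 21.4 ± 1.21 CPM (log2 fold change -0.059 ± 0.064 SE; adjusted p = 0.782 in edgeR). The groups overlapped for all 3, and the difference between Rbm26 and Rbm27 in their response was not tested.

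Among 9 listed partners of these adaptors, Zfc3h1 rose and 8 did not pass. Zfc3h1, the zinc finger scaffold of PAXT, was at 15.3, 16.8 and 14.9 CPM in controls and at 19.1, 19.1 and 20.5 CPM with RBM25, with no overlap. Its log2 fold change was 0.32 ± 0.070 (SE; adjusted p = 0.0305 in edgeR, DESeq2 adjusted p = 0.0471). The call was lost without control replicate 1, 2 or 3 (edgeR adjusted p = 0.107, 0.106 and 0.204) or RBM25 replicate 2 (0.0881), and on FPKM (limma adjusted p = 0.341), in a range of 6.27e-04 to 0.561 over all alternatives. The NEXT subunits Zcchc8 and Mtrex, the helicase that serves both complexes, had log2 fold changes of 0.13 ± 0.059 and 0.089 ± 0.040 (SE; edgeR adjusted p = 0.406 and 0.402). Of the 9 partners, 6 had a positive and 3 a negative log2 fold change, the lowest being -0.044 for Zc3h18.

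**Figure D4:**
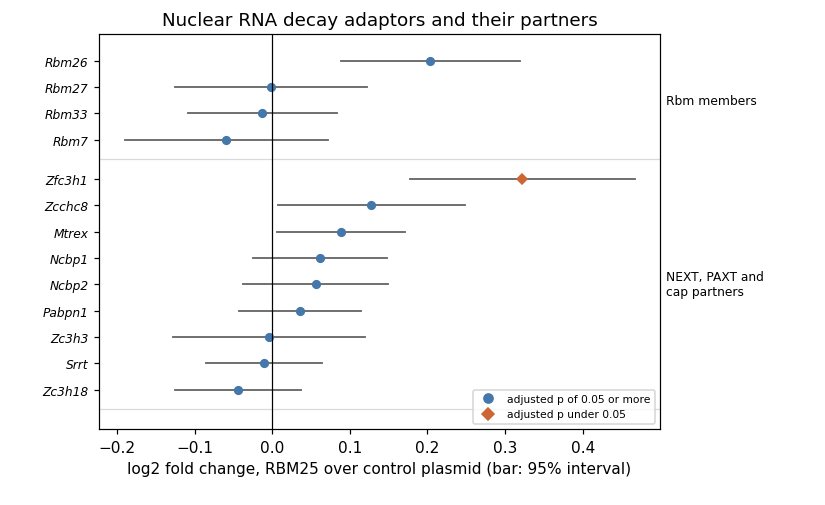
Log2 fold change (RBM25 over control plasmid) with 95% intervals for the Rbm members listed under nuclear RNA decay and for 9 listed partners. The partners are in the NEXT and PAXT complexes and at the mRNA cap. Rbm33 is listed with the members but is known for work with ALKBH5. The diamond marks Zfc3h1, the partner with an adjusted p under 0.05; Rbm26 is the 1 member whose interval lies above 0.

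The other lists of partners held no gene with an edgeR adjusted p under 0.05. Of 50 partner genes tested in all, 1 was called, beside 0.404% of all genes. At an unadjusted p under 0.05 in edgeR, 6 were higher and 1 lower, beside 6.4% and 4.78% of all tested genes. The median log2 fold change of the 50 was 0.0089, against -0.0021 over all tested genes. Without overlap between the groups, 4 of the 50 were higher and 5 lower, beside 8.31% and 7.94% of all tested genes. The 5 lower ones were Casc3, Acin1, Fto, Prpf19 and Isy1. Of the 9 exon junction genes, Upf3b, which links that complex to nonsense-mediated decay, had the smallest p. It was at 22.2, 20.2 and 21.4 CPM in controls and at 23.8, 25.6 and 26.4 CPM with RBM25, with no overlap (log2 fold change 0.25 ± 0.063 SE; adjusted p = 0.0768 in edgeR). The alternatives in which Upf3b passed included the fit with no filter on low counts (edgeR adjusted p = 0.0176, where 0.988% of all genes were called). Another was the fit without RBM25 replicate 1 (edgeR adjusted p = 0.0408, where 0.444% were called). Over all alternatives its adjusted p ran from 0.0048 to 0.568. Of 12 genes of m6A writing, erasing and reading, the reader Ythdf3 came first, at 38.5, 39.9 and 40.8 CPM in controls and 42.7, 41.5 and 45.9 CPM with RBM25, with no overlap (log2 fold change 0.12 ± 0.050 SE; adjusted p = 0.328 in edgeR). Of 19 spliceosome partners, Crnkl1 came first, at 14.8, 13.02 and 13.2 CPM in controls and 14.7, 15.2 and 15.9 CPM with RBM25, with overlapping groups (log2 fold change 0.16 ± 0.075 SE; adjusted p = 0.407 in edgeR). Cirbp, the cold-inducible relative of Rbm3, was at 29.3, 28.5 and 30.3 CPM in controls and at 28.6, 27.5 and 31.3 CPM with RBM25, with overlapping groups (edgeR adjusted p = 0.948).

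The m6A adaptors did not pass the test. Rbm15 was at 11.3, 11.6 and 11.6 CPM in controls and at 12.5, 12.2 and 11.8 CPM with RBM25. The groups did not overlap, and the log2 fold change was 0.081 ± 0.077 (SE; adjusted p = 0.75 in edgeR). Its relative Rbm15b was at 22.7 ± 0.764 and 22.6 ± 1.42 CPM, with overlapping groups. Of the methyltransferase subunits, the catalytic Mettl3 was at 36.4 and 36.6 CPM and the organiser Wtap at 79.6 and 82.1 CPM.

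The nucleolar members serve ribosome assembly. Rbm34 was at 24.0, 24.8 and 25.5 CPM in controls and at 26.5, 25.5 and 27.0 CPM with RBM25. Its groups just failed to overlap, with a log2 fold change of 0.087 ± 0.057 (SE; adjusted p = 0.605 in edgeR). Rbm28 was at 45.5 ± 0.760 and 48.0 ± 3.31 CPM and Rbm19 at 28.4 ± 1.72 and 28.1 ± 2.34 CPM, with overlapping groups and no call.

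Of the 6 members that act on mRNA stability and translation, Rbms1 had the smallest p. It was at 91.7, 82.2 and 88.0 CPM in controls and at 89.8, 92.7 and 97.3 CPM with RBM25. The groups overlapped through control replicate 1, and the log2 fold change was 0.095 ± 0.041 (SE; adjusted p = 0.364 in edgeR). Its relatives Rbms2 and Rbms3 had log2 fold changes of -0.014 ± 0.031 and 0.084 ± 0.079 (SE). Rbm3 was at 248, 246 and 242 CPM in controls and 259, 253 and 252 CPM with RBM25, and although the groups did not overlap the difference was small (0.054 ± 0.031 SE; adjusted p = 0.545 in edgeR).

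Rbm43 had lower values with RBM25, without overlap. It was at 5.06, 4.84 and 5.40 CPM in controls and at 4.45, 4.51 and 4.36 CPM with RBM25, and its libraries within the RBM25 group were nearly level. The log2 fold change of -0.20 ± 0.12 (SE) did not pass (edgeR adjusted p = 0.565), with 435 control and 412 RBM25 reads behind it. The p53 target Rbm38 was at 52.1 ± 1.47 and 50.4 ± 2.05 CPM (edgeR adjusted p = 0.754).

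**Figure D5:**
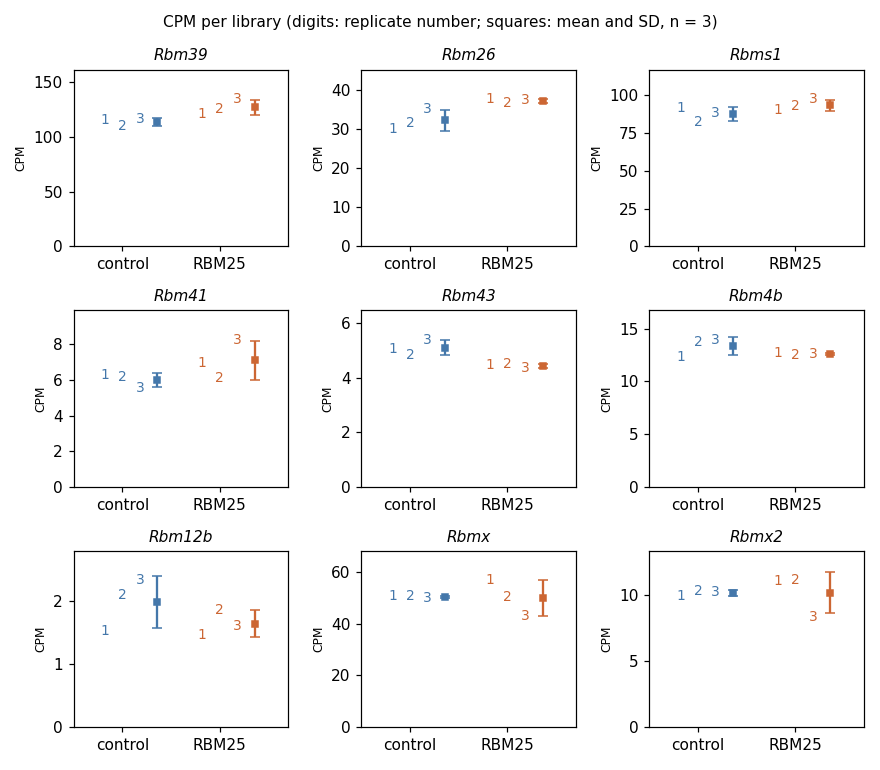
CPM of 9 members in each library, with axes that start at 0. Digits are replicate numbers, and squares with bars are the mean and SD of 3 libraries. Rbm39 and Rbm26 do not overlap between the groups and are higher with RBM25, Rbm43 does not overlap and is lower, and the RBM25 libraries of Rbmx, Rbmx2 and Rbm41 are far apart.

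The remaining members gave no call either. Rbm12b had the largest negative log2 fold change, -0.28 ± 0.20 (SE; adjusted p = 0.634 in edgeR), from values of 1.53, 2.09 and 2.33 CPM in controls and 1.45, 1.86 and 1.61 CPM with RBM25. These ranges overlapped, and the gene had 171 control reads in all. Rbm18 was at 49.1 ± 2.09 and 51.5 ± 0.694 CPM, Rbm12 at 28.8 ± 1.17 and 29.9 ± 1.50 CPM, and Rbm45, studied for its inclusions in neurodegeneration, at 28.6 ± 1.80 and 28.3 ± 1.27 CPM. Rbm44 and Rbm11 were at 1.03 and 1.51 CPM in controls and 1.15 and 1.62 CPM with RBM25.

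In total 7 tested members had no overlap between the groups, 5 of them higher with RBM25 (Rbm3, Rbm39, Rbm34, Rbm26 and Rbm15; 8.31% of all tested genes) and 2 lower (Rbmxl1 and Rbm43; 7.94%). This is 19.4% of the members beside 16.2% of all tested genes. The summed level of the family was 1930 to 1965 CPM in controls and 1959 to 1989 CPM in RBM25 libraries, so the groups overlapped. Taking each member's log2 CPM relative to its control mean, the median over members was 0.019, 0.020 and -0.0034 for RBM25 replicates 1 to 3 and between -0.0037 and 0.0053 for the controls. Between replicates the median SD of log2 CPM was 0.047 in controls and 0.059 with RBM25 over the members, and 0.064 and 0.070 over all tested genes.

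In the RefSeq gene table of the assembly GRCr8, to which all 37 members matched by symbol, 10 members overlap another protein-coding gene. Rbm5 and Rbm6 overlap each other, as do Rbm4b and Rbm14. Rbm6 also overlaps Cfl1l1, and Rbm14 also overlaps Rbm4, which is not among the 37 members. The rest are Rbms2 with Baz2a, Rbm18 with Mrrf, Rbm34 with Tomm20, Rbm12 with Cpne1, Rbm12b with Cibar1, and Rbm48. The sources used here do not say how reads in shared stretches were counted or whether strand was used, so the levels of these members are uncertain.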

How the data were processed

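Per the labels' protocols, poly(A) RNA was made into strand-marked libraries and sequenced as read pairs. The submitters' processing notes name HISAT2 and DESeq2, without versions, and mRatBN7.2 as the genome build. The deposited counts are whole reads per gene, not normalized. The deposited FPKM values were computed by the authors and rounded to 2 decimals; reads divided by FPKM gave the same gene length in all libraries to within 0.99% for the 32 members of at least 1 FPKM.

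Counts were tested with edgeR 4.0.16 (R 4.3.3): genes kept by filterByExpr (minimum count 10), scaling by TMM factors, a robust quasi-likelihood fit on group alone, and Benjamini-Hochberg adjustment over all 12882 genes. SE is the size of the log2 fold change over the square root of F. CPM is scaled by the TMM factors. Alternatives were DESeq2 1.42.0, limma 3.58.1 on FPKM, other scaling and filters, the replicate number as a block, and each library left out. The planned comparison of protein sequences was not made here.

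Values in every library are given, by rule, for members with an unadjusted p under 0.05, the 3 largest log2 fold changes each way and the 5 highest levels, and for called or lowest-p partner genes; others were added after their values were seen. Members, roles and partner lists were chosen with earlier results of these data known.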

Additional observations from a re-analysis of the deposited data

How the results depend on the processing

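Of the 36 tested members, 22 kept the sign of their log2 fold change in every alternative that tested them (up to 14), among them Rbm39 (0.11 to 0.19) and Rbm26 (0.16 to 0.28), and these 2 were the only members called by any. With no filter on low counts 2 members, 2 partner genes and 205 genes in all were called, 149 higher and 56 lower, against 0, 1 and 52 (46 higher and 6 lower) as reported. Leaving out 1 library at a time gave 0 to 1 members called, 0 to 2 partner genes, 5 to 352 genes in all and a median log2 fold change of the members from -0.0067 to 0.042. The lowest count over all genes came without control replicate 2 and the highest without RBM25 replicate 3; it was 21 without control replicate 3. These fits left 2 libraries in a group. On FPKM, limma called 3 genes (pseudocount 0.1), 2 (pseudocount 1) and 6 (no filter on low values), with 0 partner genes in each. RLE scaling, DESeq2 and a stricter filter of 50 reads in 3 libraries kept every count within 1.5 times. The cause of these differences was not tested.

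The replicate numbers showed no clear pairing of the libraries. The labels do not say whether same-numbered libraries pair, and correlations from 3 libraries per group cannot exclude it. The deviations of same-numbered libraries from their group means correlated at 0.10, -0.084 and 0.010, and of the controls only replicate 1 correlated best with its own number. With the replicate block, 2 members (Rbm39 and Rbm26; edgeR adjusted p = 1.09e-04 and 0.0048), 2 partner genes (Zfc3h1 and Upf3b; 6.27e-04 and 0.0048) and 436 genes in all were called, 258 higher and 178 lower. The intervals of Rbm26, Rbm41, Rbm43, Rbm11, Rbm44 and Rbm12b reach beyond 1.2-fold, and Rbmxl1b was not tested at its depth.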
